A study of Rattus norvegicus with 4 samples.

Results

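Activated D2 neuron nuclei are nuclei with the transcripts of D2 medium spiny neurons that also carried several transcripts of immediate-early genes. They were chosen from raw UMI counts (unique molecular identifiers, each counted once as 1 captured transcript) in nuclei with at least 200 detected genes. A D2 nucleus needed a sum of Drd2, Adora2a and Penk of at least 5 UMIs with Drd2 at 1 or more, Drd1 and Ebf1 together at 1 or less, Pde10a at 5 or more and Grm8 at 4 or less. A nucleus was called activated when the UMIs of Fos, Fosb, Junb, Egr4, Nr4a1 and Nr4a3 summed to 5 or more. In all, 3213 of 26228 nuclei passed the D2 gate, and 192 of them (5.98%) were activated. Another 2279 D2-gated nuclei had a 6-gene sum of 0 and served as the comparison, called zero-sum nuclei below, and 742 had a sum of 1 to 4.

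The study profiled single nuclei from the nucleus accumbens of male and female Sprague-Dawley rats aged 90 to 120 days. Cocaine at 20 mg/kg, or saline alone, was given intraperitoneally on each of 7 consecutive days, each time before an open field session, and tissue was taken 1 h after the last dose. Each of the 4 libraries pooled 2 mm punches from 4 rats of 1 sex and 1 treatment. Each treatment thus had 1 female and 1 male library, and no p-value measures the spread between single rats. The tests of single genes also lean on a spread shared across genes, as given under the processing. No transgene or reporter is named in the labels, and the rats of the saline libraries received the same volume of saline alone.

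D2 medium spiny neurons are inhibitory output neurons of the striatum marked by Drd2, a dopamine receptor, Adora2a, an adenosine receptor, and Penk, the precursor of enkephalin peptides. Immediate-early genes are transcribed within minutes of strong synaptic or neuromodulatory input, without new protein synthesis. Many encode transcription factors that then act on later genes for synaptic scaffolds, neuropeptides and growth factor signalling. Calcium and cAMP signals reach these genes largely through the factor CREB, which binds cAMP response elements, and through serum response factor.

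Library totals ranged from 31484217 to 40737786 UMIs over 6213 to 7265 nuclei. Between any pair of libraries, 10 to 18 cell barcodes were shared, at most 0.282% of the smaller library. Activated nuclei had a median of 10698 UMIs in the saline female, 7703 in the saline male, 8896 in the cocaine female and 7041 in the cocaine male library, and zero-sum nuclei had 9944, 7262, 7673 and 6654. Activated nuclei were thus slightly deeper than zero-sum nuclei in every library, and the female libraries were deeper than the male library of the same treatment. Scrublet scores placed 8 of the 192 activated nuclei (4.17%) and 151 of the 2279 zero-sum nuclei (6.63%) among likely doublets.

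The gate genes and the 6 rule genes chose the nuclei, so their values are a description. Drd2 stood at 917, 775, 725 and 686 CPM (counts scaled to the summed UMIs of all nuclei of that state in that library) in activated nuclei of the saline female, saline male, cocaine female and cocaine male libraries, against 891, 901, 768 and 828 CPM in zero-sum nuclei. Adora2a lay at 165 to 217 CPM in activated and 200 to 240 CPM in zero-sum nuclei. Gpr6, a D2 neuron receptor that the gate did not use, differed by a log2 fold change of -0.13 between the states (edgeR quasi-likelihood adjusted p 0.704). It was lower in activated than in zero-sum nuclei of every library. The oligodendrocyte gate allowed no Drd2 or Drd1 UMI, so the absence of Drd2 from oligodendrocyte-gated nuclei was set by that gate.

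Markers of other cell types were summed as lists. Astrocyte markers stood at 0 to 8.17 CPM in activated and 14.9 to 35.4 CPM in zero-sum nuclei, with Gfap and Gja1 at 0 in activated nuclei. Oligodendrocyte markers stood at 77.2 to 180 CPM against 202 to 251 CPM, microglia markers at 4.06 to 28.7 against 7.00 to 21.3 CPM, and interneuron markers at 3.49 to 44.9 against 21.9 to 46.4 CPM, with Chat, Pthlh, Slc5a7 and Vip at 0 in activated nuclei. Neurod2, Slc17a6 and Slc17a7 of the glutamatergic list, and both vascular markers used, had no UMI in activated nuclei. Oligodendrocyte precursor markers lay at 10.5 to 34.7 CPM against 9.76 to 15.2 CPM, and eccentric spiny neuron markers at 87.3 to 195 CPM against 88.3 to 106 CPM. The 5 D1 neuron markers summed to 34.4 to 116 CPM in activated and 7.5 to 17.9 CPM in zero-sum nuclei. That list was the one whose groups did not overlap in the upward direction, and 140 of its 154 UMIs came from the peptide precursor Tac1, described below. Drd1 had 4 UMIs over all activated nuclei, all in the cocaine male library. The D2 gate capped the sum of Drd1 and Ebf1 in every nucleus (above), so low counts of these genes were set by that gate. Such counts give no test of mixing with D1 neurons.

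Of the 6 rule genes, 4 had a promoter in the RefSeq promoter table (build GRCr8), as did 11 of the 14 genes named below as higher in activated nuclei and 6 of the 9 named as lower. The 250 bases before the start were searched on both strands for the full cAMP response element (TGACGTCA), its half-site (TGACG, which every full element also holds), an AP-1 site (TGANTCA), an EGR site (GCGNGGGCG), an NR4A response element (AAAGGTCA) and the core of the serum response element. A match is a run of letters and not a measured binding site. Promoters of 2 rule genes and of 3 genes named as higher are shown because they hold the half-site on which CREB-family factors are known to act. Capitals mark the matches, and sequences run 5′ to 3′ on the gene's strand. Egr4 lies at chr4:119607818-119608067 (minus strand), Nr4a1 at chr7:134259888-134260137 (plus), Nts at chr7:39460889-39461138 (minus), Slc25a25 at chr3:36116582-36116831 (minus) and Zdbf2 at chr9:72203348-72203597 (plus).
Egr4: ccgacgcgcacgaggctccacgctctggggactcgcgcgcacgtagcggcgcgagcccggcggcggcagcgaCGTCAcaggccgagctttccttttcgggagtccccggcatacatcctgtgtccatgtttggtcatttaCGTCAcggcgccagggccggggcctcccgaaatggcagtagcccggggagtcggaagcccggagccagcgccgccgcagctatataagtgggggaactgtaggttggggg
Nr4a1: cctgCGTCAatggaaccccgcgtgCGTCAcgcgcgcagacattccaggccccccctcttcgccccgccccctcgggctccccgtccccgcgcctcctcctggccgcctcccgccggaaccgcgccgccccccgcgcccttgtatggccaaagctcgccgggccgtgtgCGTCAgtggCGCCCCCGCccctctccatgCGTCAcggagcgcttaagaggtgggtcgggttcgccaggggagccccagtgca
Nts: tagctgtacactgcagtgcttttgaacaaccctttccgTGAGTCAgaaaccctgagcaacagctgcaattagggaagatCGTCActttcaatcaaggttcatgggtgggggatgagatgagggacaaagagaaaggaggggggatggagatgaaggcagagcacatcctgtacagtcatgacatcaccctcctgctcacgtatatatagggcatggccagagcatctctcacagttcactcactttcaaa
Slc25a25: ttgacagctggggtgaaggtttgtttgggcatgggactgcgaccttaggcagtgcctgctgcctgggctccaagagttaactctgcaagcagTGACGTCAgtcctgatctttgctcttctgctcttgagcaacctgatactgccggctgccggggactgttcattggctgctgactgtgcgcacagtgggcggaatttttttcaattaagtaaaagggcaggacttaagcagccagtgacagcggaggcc
Zdbf2: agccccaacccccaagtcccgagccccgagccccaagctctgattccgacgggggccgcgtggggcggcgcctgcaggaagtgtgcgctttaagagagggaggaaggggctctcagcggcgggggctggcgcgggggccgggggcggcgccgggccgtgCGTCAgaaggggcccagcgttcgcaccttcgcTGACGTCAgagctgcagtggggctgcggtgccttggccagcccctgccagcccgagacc
Egr4 held 2 half-sites, at 178 to 174 and 110 to 106 bases before its start, and Nr4a1 held 4 and an EGR site. Zdbf2 and Slc25a25 each held the full element, which 1.59% of the 33469 promoters in the table hold. Nts held a half-site and an AP-1 site. The AP-1 site was in 1 of the 11 promoters of genes named as higher and in 1 of the 6 of genes named as lower (Trim2), beside 6.34% of all promoters. The half-site was present in 3 of the 4 rule gene promoters (Junb, Egr4 and Nr4a1), in 6 of the 11 promoters of genes named as higher (Nts, Rheb, Zdbf2, Slc25a25, Egr1 and Sik2) and in 0 of the 6 of genes named as lower, beside 18.2% of all promoters. The EGR site (4.29% of all promoters) was in Nr4a1, Fosl2 and Sik2, and the serum response element core (1.5%) was in Egr1 among these genes. The NR4A element (1.24%) was in none of them.

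Nr4a3, an orphan nuclear receptor of the NR4A family, supplied 980 UMIs, or 35.7% of the 6-gene sum, and was the leading gene in 71 of the 192 activated nuclei. It averaged 3.57 UMIs per activated nucleus in the saline female, 2.91 in the saline male, 8.00 in the cocaine female and 4.95 in the cocaine male library. Both cocaine libraries thus lay above both saline libraries, and the cocaine female library was highest. Nr4a1, its close relative, had 627 UMIs and was detected in 84.4% of activated nuclei, the largest share of the 6. Junb, an AP-1 subunit, had 544 UMIs in 77.6% of nuclei, and Egr4, a zinc finger factor, had 329 UMIs in 45.3%. Fos had 163 UMIs in 46.9% of activated nuclei, and Fosb had 104 UMIs in 24.0%. These are captured transcripts per gene, not scaled for transcript length.

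The 192 nuclei differed widely in how many of the 6 transcripts they carried. At least 3 of the 6 genes were detected in 143 nuclei (74.5%), all 6 in 14 nuclei and a single gene in 12. The median 6-gene sum was 7.5 in the saline female, 11 in the saline male, 16 in the cocaine female and 10 in the cocaine male library, with highest sums of 55, 39, 86 and 53. A sum of 10 or more was reached by 39.1%, 51.4%, 68.5% and 50.9% of activated nuclei in the same order. At the threshold, 12, 3, 8 and 7 nuclei had a sum of exactly 5, and 8, 7, 7 and 11 D2-gated nuclei had a sum of 4. The activated nuclei held 85.7% of all Nr4a3 UMIs of the D2 gate, 87.4% of those of Fosb, 78.0% of Fos, 74.6% of Nr4a1, 70.3% of Egr4 and 52.8% of Junb. Junb was therefore the rule gene most often found below the threshold.

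**Figure D1:**
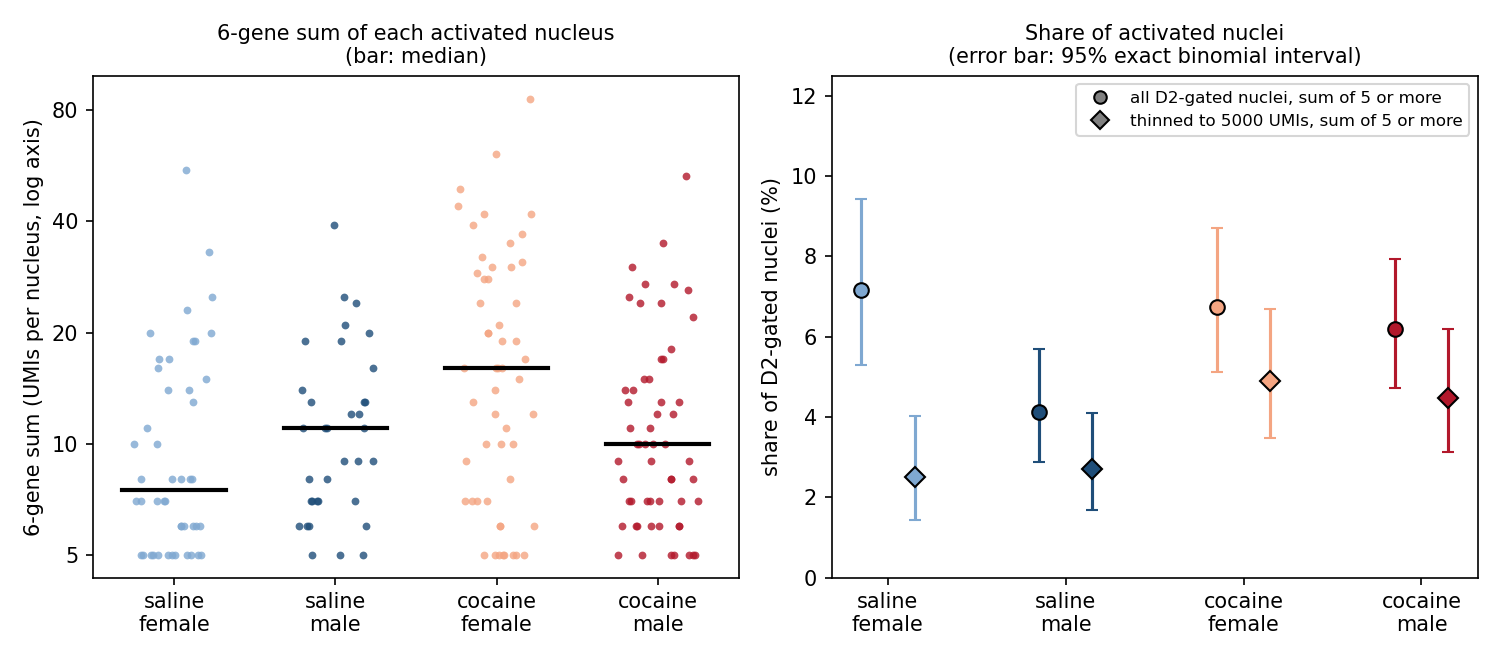
Left, the 6-gene sum of each activated nucleus (UMIs, log axis) by library, with a bar at the median (7.5, 11, 16 and 10). Right, the share of D2-gated nuclei that were activated, with exact 95% binomial intervals: circles show all nuclei (7.15%, 4.12%, 6.75% and 6.19%) and diamonds nuclei thinned to 5000 UMIs, where both cocaine libraries lie above both saline libraries.

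The share of activated nuclei was 7.15% in the saline female (46 of 643 nuclei, exact Clopper-Pearson 95% interval 5.29% to 9.43%) and 4.12% in the saline male library (35 of 849, 2.89% to 5.69%). With cocaine it was 6.75% in the female (54 of 800, 5.11% to 8.72%) and 6.19% in the male library (57 of 921, 4.72% to 7.94%). These intervals cover counting error only. The treatments overlapped, with a mean of 5.64% ± 2.14 (SD, n = 2) for saline and 6.47% ± 0.40 (SD, n = 2) for cocaine. The difference of 0.83 percentage points was smaller than the spread between the saline libraries (two-sided exact permutation p = 1, where the smallest p that 2 against 2 allows is 0.3333). Without the saline male library the difference was -0.68 points. It was -0.40 points in females and 2.07 points in males, with 1 library per treatment in each sex. The female difference was positive at a threshold of 8 UMIs (1.30 points, beside 1.20 in males), without Nr4a3 in the sum (0.90) and with likely doublets removed (0.14), and -1.82 points at a threshold of 3.

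The saline female library had both the deepest nuclei and the highest share. When each D2-gated nucleus was thinned to 5000 UMIs, 2931 nuclei remained, and 4, 71, 45 and 162 shallower nuclei of the saline female, saline male, cocaine female and cocaine male libraries were left out. The share with a thinned sum of 5 or more was then 2.50% and 2.70% in the saline libraries and 4.90% and 4.48% in the cocaine libraries. Means were 2.60% ± 0.14 (SD, n = 2) for saline and 4.69% ± 0.30 (SD, n = 2) for cocaine, a difference of 2.09 points (2.40 in females and 1.78 in males) at the smallest p the design allows (two-sided exact permutation p = 0.3333). Unthinned, the same nuclei gave a difference of 1.08 points with overlapping groups. With a thinned sum of 3 or more the difference was 1.72 points.

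Oligodendrocyte-gated nuclei, which are not neurons, gave the background. They were shallower (median 1531 to 2033 UMIs), and 1 of 6814 nuclei reached a sum of 5. Any of the 6 transcripts was seen in 2.00% ± 0.20 (SD, n = 2) of these nuclei with saline and 3.40% ± 0.51 (SD, n = 2) with cocaine. In D2-gated nuclei any of the 6 was seen in 28.8% and 29.5%. The summed level of the 6 genes in oligodendrocyte-gated nuclei was 9.68, 9.91, 19.7 and 22.6 CPM in the saline female, saline male, cocaine female and cocaine male libraries, against 997, 1470, 2197 and 1476 CPM in activated D2 nuclei. D1-gated nuclei, chosen by Drd1, Ebf1 and Pdyn, were activated in 6.85% ± 0.35 (SD, n = 2) of nuclei with saline and 12.2% ± 2.93 (SD, n = 2) with cocaine. Within libraries the D1-gated share exceeded the D2-gated share by 3.45 points ± 3.15 (SD, n = 4), higher in 3 of 4 libraries (two-sided exact sign-flip p = 0.25, smallest possible 0.125). D1-gated nuclei were deeper than D2-gated nuclei in every library, with medians of 7954 to 11169 against 6737 to 9956 UMIs. The D1-gated shares were not thinned, and the part of depth in this difference was not tested.

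Beyond the genes that chose them, activated D2 nuclei carried more transcripts of a wide set of activity-response genes than zero-sum nuclei of the same library. Among the genes named here, the largest changes were in Arc, Npas4, Egr2, Fosl2, Pcsk1 and Nts, from 33.9-fold (Nts) to 95.7-fold higher (Npas4). Npas4 and Egr2 had few UMIs in zero-sum nuclei (below), so their fold changes rest on low counts. The 9 genes named as lower, chosen by adjusted p and not by size, differed by 1.60-fold (Trim2) to 2.22-fold (Dclk3). Counts were summed per library and state and compared with edgeR's quasi-likelihood test, with the library as a block, and p-values were adjusted by Benjamini-Hochberg over all genes tested. Of 10868 genes tested outside the rule and gate, 1174 (10.8%) differed at an adjusted p under 0.05, 872 higher (8.02%) and 302 lower (2.78%) in activated nuclei. Of these, 1069 had one sign in all 4 libraries, 314 were at least 2-fold higher and 79 at least 2-fold lower. The same 4 libraries chose these genes, so the count with one sign gives the calls no further support. DESeq2 called 717 genes, all among those of edgeR, of which 651 were higher and 66 lower. Among nuclei of 8000 to 16000 UMIs in both states, 641 genes were called, 84.1% of them higher, against 74.3% of the 1174.

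Nts, the precursor of the neuropeptide neurotensin, had the smallest adjusted p. It stood at 168, 395, 323 and 467 CPM in activated nuclei of the saline female, saline male, cocaine female and cocaine male libraries, against 5.07, 17.7, 7.03 and 15.6 CPM in zero-sum nuclei. Every activated value exceeded every zero-sum value, by a log2 fold change of 5.08 ± 0.15 (SE, edgeR quasi-likelihood adjusted p 4.31e-22). Pcsk1, the convertase that cleaves neuropeptide precursors such as proenkephalin, stood at 80.2, 140, 244 and 178 CPM against 6.39, 3.50, 4.90 and 3.25 CPM. Its log2 fold change was 5.25 ± 0.24 (SE, edgeR quasi-likelihood adjusted p 1.15e-16), and the lowest activated value, in the saline female library, was still above all zero-sum values.

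Arc, a synaptic protein that controls AMPA receptor uptake, stood at 118, 147, 124 and 79.6 CPM in activated nuclei and 1.28 to 1.99 CPM in zero-sum nuclei. Its log2 fold change was 6.14 ± 0.25 (SE, edgeR quasi-likelihood adjusted p 2.89e-18). Homer1, a postsynaptic scaffold gene with a short activity-induced form that gene-level counts do not separate, stood at 1169, 1704, 2349 and 2417 CPM against 435 to 528 CPM. It rose by 2.09 ± 0.12 on the log2 scale (SE, edgeR quasi-likelihood adjusted p 1.92e-14), with both cocaine values above both saline values among activated nuclei. Ntrk2, which encodes the BDNF receptor TrkB, stood at 1578, 1299, 2016 and 2123 CPM against 396 to 430 CPM, a log2 fold change of 2.20. Rheb, a small GTPase that activates mTORC1, stood at 250, 265, 445 and 443 CPM against 50.5 to 54.7 CPM, a log2 fold change of 2.86.

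Among the other genes named as higher, Fosl2, an AP-1 subunit, had a log2 fold change of 5.93, with 57.3 to 132 CPM in activated and 1.07 to 2.65 CPM in zero-sum nuclei. Gadd45g, of a family of growth arrest and DNA repair genes, differed by 3.89 and the zinc finger factor Egr1 by 3.55 on the log2 scale. Peli1, an E3 ubiquitin ligase, differed by 2.55, the salt-inducible kinase Sik2 by 2.47 and the calcium-regulated mitochondrial carrier Slc25a25 by 2.37. The imprinted genes Mest and Zdbf2 differed by 2.25 and 2.23. As the naming rule required, each of these 8 genes was higher in activated nuclei of all 4 libraries, with edgeR quasi-likelihood adjusted p from 1.80e-16 to 2.55e-14.

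**Figure D2:**
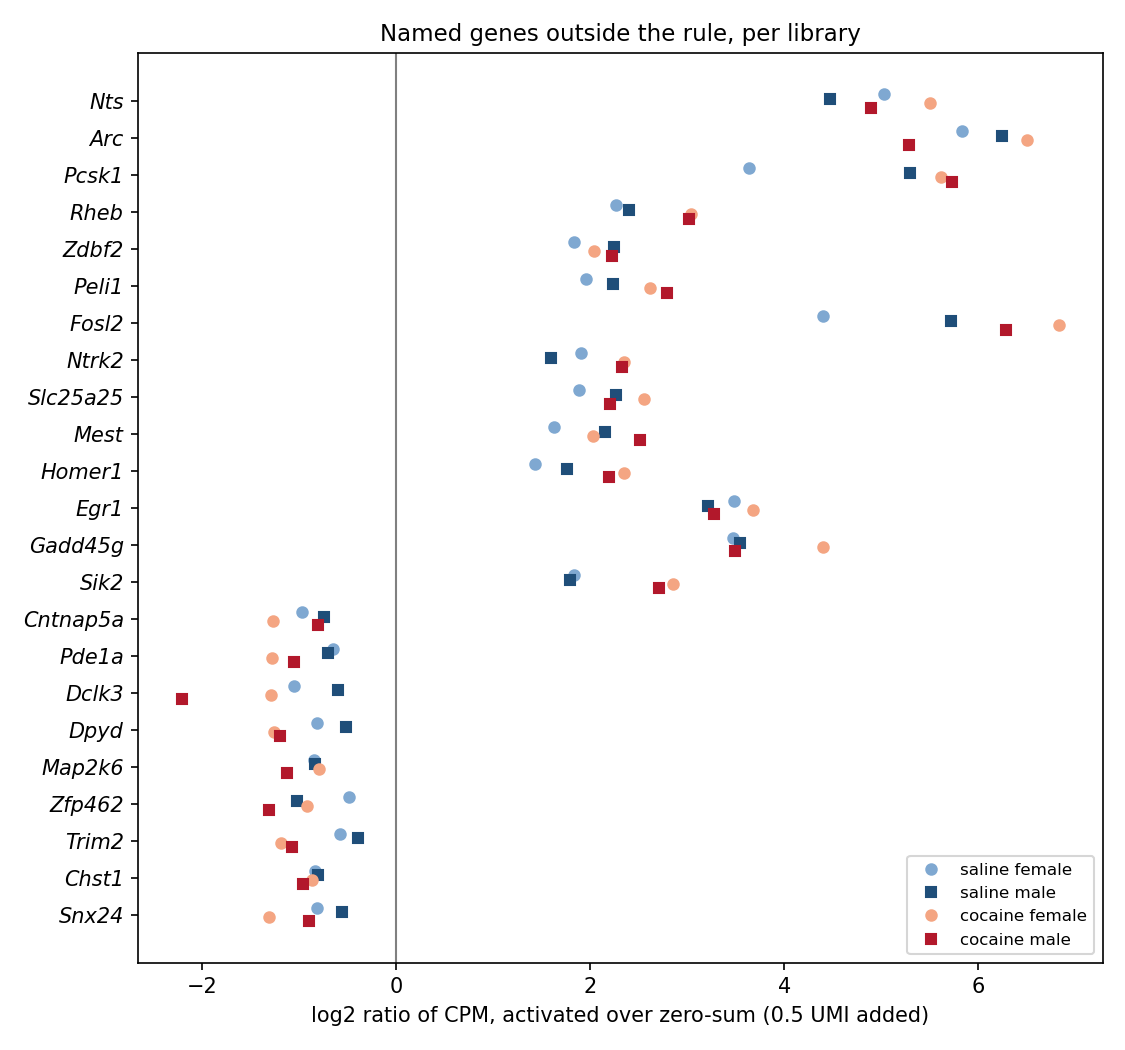
Log2 ratio of CPM, activated over zero-sum nuclei, with 0.5 UMI added to each count, for the 14 genes named as higher and the 9 named as lower, 1 point per library. By the naming rule, all points of the upper 14 genes lie right of 0 and all points of the lower 9 lie left of 0. Arc, Fosl2, Pcsk1 and Nts lie farthest right.

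The 9 genes named as lower encode adhesion, calcium-signalling and trafficking proteins among others. Cntnap5a, a contactin-associated adhesion protein, stood at 254, 269, 224 and 243 CPM in activated nuclei of the saline female, saline male, cocaine female and cocaine male libraries, against 500, 455, 542 and 428 CPM in zero-sum nuclei. Its groups did not overlap, with a log2 fold change of -0.82 ± 0.11 (SE, edgeR quasi-likelihood adjusted p 8.51e-07). The phosphodiesterase Pde1a, which is activated by calmodulin, had -0.79, and the doublecortin-like kinase Dclk3 had -1.15. Dpyd, an enzyme of pyrimidine breakdown, had -0.84, the p38 pathway kinase Map2k6 -0.78, the zinc finger gene Zfp462 -0.76, the sorting nexin Snx24 -0.79, the sulfotransferase Chst1 -0.75 and the ubiquitin ligase Trim2 -0.68. As the naming rule required, these 8 genes were lower in activated nuclei of all 4 libraries, with edgeR quasi-likelihood adjusted p from 1.25e-05 to 1.74e-04. Among nuclei of 8000 to 16000 UMIs, Dpyd (-0.52), Map2k6 (-0.47) and Chst1 (-0.53) no longer passed. Snx24 and Trim2 stood at 659 and 2115 CPM in oligodendrocyte-gated nuclei, and oligodendrocyte markers were lower in activated than in zero-sum nuclei (above); the part of those markers in these 2 values was not tested.

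Nuclei with a sum of 1 to 4 lay between. Of the 14 genes named as higher, 13 had their level in rising order from zero-sum through middle to activated nuclei in all 4 libraries, and Egr1 in 3 of 4. Genes named as higher or lower had to keep one sign in all 4 libraries, so only the place of the middle nuclei was free. Arc had a mean of 1.77 CPM at a sum of 0, 7.89 CPM at 1 to 4 and 117 CPM at 5 or more. Ntrk2 had 417, 784 and 1754 CPM in the same order, and Nts had 11.4, 27.4 and 338 CPM. Middle nuclei were thus closer to zero-sum than to activated nuclei for each of these genes. The lower genes fell in order in all 4 libraries except Pde1a and Chst1, which did so in 3 of 4. Cntnap5a had means of 481, 408 and 247 CPM, and Dclk3 88.4, 71.4 and 37.7 CPM.

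**Figure D3:**
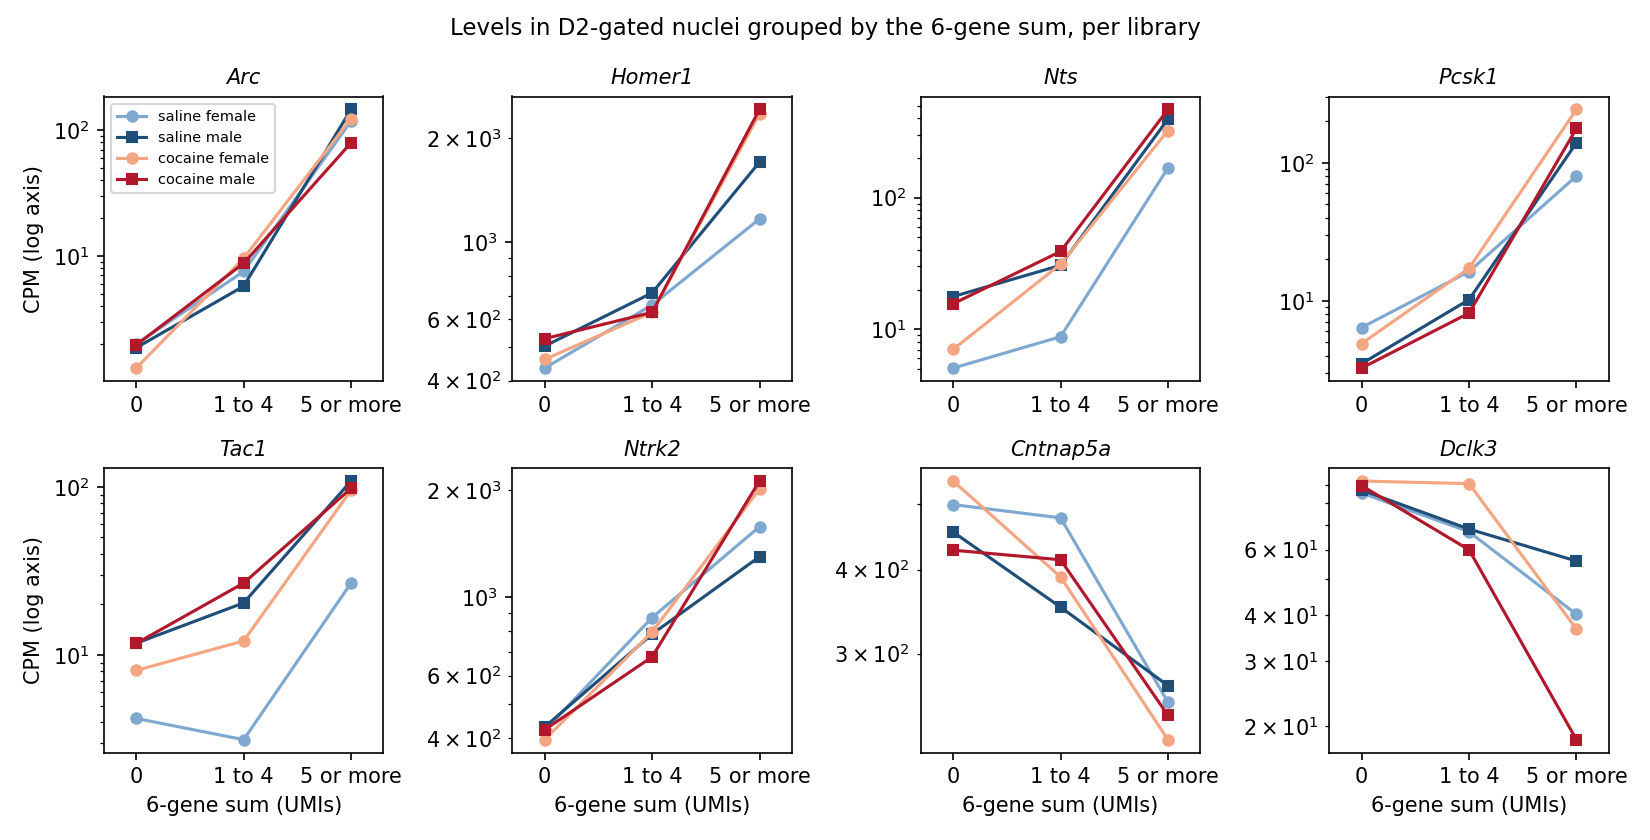
CPM (log axes) of 8 genes in D2-gated nuclei with a 6-gene sum of 0, 1 to 4, or 5 or more, 1 line per library. Arc, Homer1, Nts, Pcsk1 and Ntrk2 rise and Cntnap5a and Dclk3 fall in every library, while Tac1 in the saline female library is slightly lower in the middle nuclei than at 0.

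Gene lists named after known pathways placed these genes in context. The lists were chosen with earlier results of these data known, so their counts are a description and give no independent support. Each was read against the share of all genes called (10.8%) and the median log2 fold change of all genes tested (-0.05). Of 26 listed immediate-early transcription factors outside the rule, 11 had enough counts to be tested, and 8 rose and 0 fell (list median 2.94). Npas4, a neuron-specific calcium-responsive factor, had 18, 12, 21 and 22 UMIs in activated nuclei of the saline female, saline male, cocaine female and cocaine male libraries and 2, 2, 4 and 0 UMIs in zero-sum nuclei, a log2 fold change of 6.58. Egr2 had 4, 6, 21 and 7 UMIs in activated nuclei against 2, 2, 0 and 0, a log2 fold change of 6.50. Tiparp (3.30), Nfil3 (2.94), the clock gene Per2 (1.83) and the cAMP-responsive factor Crem (0.90) also rose. Jund (0.26), Bhlhe40 (0.50) and Rora (0.19) did not pass. Since members at few counts pass the filter mostly where they are high, the counts are over the members tested and not the whole list.

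Among synaptic and secreted effectors, 16 of 20 tested rose and 0 fell (median 2.02). Tac1, the precursor of substance P and a marker of D1 neurons in the striatum, stood at 26.7, 108, 95.5 and 98.0 CPM in activated nuclei, against 4.19, 11.7, 8.09 and 11.7 CPM in zero-sum nuclei, with no overlap (log2 fold change 3.33, edgeR quasi-likelihood adjusted p 4.96e-13). Cartpt, another neuropeptide precursor, stood at 113, 304, 167 and 143 CPM against 26 to 70.9 CPM, a log2 fold change of 1.93. The granin Scg2 differed by 1.96 and the secreted neuropeptide precursor Vgf by 1.70. The signalling genes Rgs2 (2.65), Sik1 (3.12), Plk2 (1.31) and Ptgs2 (3.61) rose too. Gadd45b (-0.46), Baz1a (0.26) and Npy (-0.39) did not pass. Other D1 neuron genes were read beside Tac1: of the 4 of this list tested 3 rose, with Reln at 2.33, Htr4 at 0.39 and Sfxn1 at -0.09 (not passing). Reln, a secreted glycoprotein, stood at 17.2 and 45.4 CPM in saline and at 112 and 110 CPM in cocaine activated nuclei, against 12.8 to 18.0 CPM in zero-sum nuclei. Htr4 lost its call without either cocaine library. Tac1 averaged 15.3 CPM in oligodendrocyte-gated nuclei, and the part of RNA from other cells in these values was not tested.

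Among kinase feedback and calcium-signalling genes, 11 of 18 tested rose and 1 fell (median 0.79). The dual-specificity phosphatase Dusp14 differed by 2.47, the phosphatase Ubash3b by 2.26, the elongation factor Ell2 by 2.21, the guanine nucleotide exchange factor Arhgef3 by 2.04, the Ras-pathway inhibitor Spred1 by 1.28 and the adaptor Shc3 by 1.16, each higher in 4 of 4 libraries. Spry2 (0.93), Spred2 (0.71), Rcan2 (0.88), Camk1g (1.17) and Rasgrp1 (0.41) rose as well, and Camkk2, a calmodulin-dependent kinase kinase, fell by 0.52 on the log2 scale. Spred3 (0.16), Rcan1 (-0.17) and Ppp3ca (-0.02) did not pass.

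In the cAMP and striatal signalling list 6 of 21 tested rose and 2 fell, with a list median of 0.09. The cAMP phosphodiesterase Pde7b stood at 2712, 2560, 4373 and 3613 CPM in activated nuclei against 1410 to 1530 CPM, a log2 fold change of 1.30 (edgeR quasi-likelihood adjusted p 2.13e-10). Pde8b (0.75) and Pde4b (0.66) are phosphodiesterases of the same kind and also rose, while Pde2a fell by 0.31. The cannabinoid receptor Cnr1 (0.91) and Rgs7 (0.28) rose, and the small G protein Rasd2 fell by 0.58. The core of striatal cAMP signalling did not pass, with Adcy5 at 0.09, Gnal at 0.09 and Ppp1r1b at -0.35. Cnr1 passed in 6 of 12 alternatives and Rasd2 in 3 of 12, and both lost the call without either cocaine library or without the saline female library, Rasd2 also without the saline male library.

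Of the D2 identity genes outside the gate, 2 of 10 tested rose, the homeobox gene Meis2 (0.44) and Foxp1 (0.32), while Gpr6 (-0.13), Gpr52 (0.30) and Six3 (0.68) did not pass. Foxp1 was higher in 3 of 4 libraries and lost its call without either cocaine library. Of 12 compartment and regional genes 4 rose and 3 fell. Oprm1, the mu opioid receptor and a marker of striosomes, stood at 64.9, 76.8, 46.7 and 57.2 CPM in activated nuclei against 16.3 to 34.5 CPM in zero-sum nuclei, a log2 fold change of 1.5 with no overlap (edgeR quasi-likelihood adjusted p 1.78e-06). Sema5b (1.54), Calb1 (0.93) and the calcitonin receptor Calcr (0.54, higher in 3 of 4 libraries) rose, and Crym (-0.78), Wfs1 (-0.73) and Kremen1 (-0.59) fell. Crym lost the call without the cocaine female library, Kremen1 without the cocaine male library, and Wfs1 without either cocaine library or the saline male library. Crym, Kremen1 and Wfs1 also lost it with DESeq2, and Crym and Kremen1 at a threshold of 8. Calb1, known as a matrix marker, and Oprm1, known as a striosome marker, thus moved the same way.

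Of 9 heat shock genes tested 4 rose, Hspa8 (1.02), Hsph1 (0.86), Dnajb5 (0.85, higher in 3 of 4 libraries) and Dnaja1 (0.68), and Hspa5 (0.36), Hsp90aa1 (0.12) and Hsp90ab1 (0.23) did not pass. Without the cocaine female library Hspa8 and Dnajb5 lost the call. Dnajb5 also lost it without the saline female library, with DESeq2 and at a threshold of 8. Of 15 potassium channel genes 1 rose and 2 fell. The channel-interacting protein Kcnip1 differed by 1.03, although in the saline male library it was lower in activated (31.4 CPM) than in zero-sum nuclei (43.3 CPM), and it lost its call among nuclei of 8000 to 16000 UMIs (0.39). Kcnip4 fell by 0.32 and Kcnh7 by 0.45. Kcnip4 lost the call without the cocaine male library, and Kcnh7 without the cocaine female or the saline female library. Kcnh7 also lost it with DESeq2 and at a threshold of 8. The A-type potassium channel genes Kcnd2 (0.08) and Kcnd3 (-0.12) did not pass. Of the list genes named above, Cnr1, Rasd2, Foxp1, Htr4, Sema5b, Crym, Wfs1, Hspa8, Dnajb5, Kcnip4 and Kcnh7 also lost their calls among nuclei of 8000 to 16000 UMIs.

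The difference between activated and zero-sum nuclei was larger with cocaine than with saline for a small set of genes. The term for this difference of differences was tested in 1 fit over both states and treatments, and 93 of 11553 genes passed (0.805%, edgeR quasi-likelihood adjusted p under 0.05), 90 in the upward direction (0.779%). That fit had 2 residual degrees of freedom, and the spread used for each gene came from a trend over all genes. For 88 of the 90, both cocaine libraries exceeded both saline libraries in the activated over zero-sum ratio. The median log2 difference over these 90 was 0.60 with saline and 1.34 with cocaine. The 90 were chosen by this term in the same libraries, so these values describe them and give the term no further support. Of the 90, 75 were also among the genes higher in activated nuclei. DESeq2 called 13, and leaving out 1 library gave 24 genes (cocaine female left out), 28 (cocaine male), 54 (saline female) or 135 (saline male). Activated nuclei of the cocaine libraries also had more Nr4a3 UMIs each, and the 6-gene sums differed between libraries (above); the part of either in this term was not tested.

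Elmo1, which works with DOCK proteins to activate the GTPase Rac, had the smallest adjusted p for this term. It stood at 1079 and 1642 CPM in the saline female and male and at 2447 and 2847 CPM in the cocaine female and male activated nuclei, with 502 to 560 CPM in zero-sum nuclei. The log2 term was 1.18 ± 0.15 (SE, edgeR quasi-likelihood adjusted p 2.03e-11), and it passed in 8 of 8 alternatives. Elmo1 stood at 1525 CPM in oligodendrocyte-gated nuclei, and the part of RNA from other cells in its values and term was not tested. Gpr63, an orphan G protein-coupled receptor, stood at 245 and 335 CPM in saline and 589 and 535 CPM in cocaine activated nuclei, against 62.6 to 90.4 CPM in zero-sum nuclei. Its term was 1.46 ± 0.19 (SE, edgeR quasi-likelihood adjusted p 2.79e-10) and passed in 8 of 8 alternatives. The groups did not overlap for either gene. Among zero-sum nuclei Gpr63 was lower with cocaine, by -0.41 on the log2 scale (edgeR quasi-likelihood adjusted p 0.186, not passing). Its term takes in that difference as well as the rise in activated nuclei.

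Pkp2, a desmosomal plakophilin, stood at 42.0 and 31.4 CPM in saline and 250 and 100 CPM in cocaine activated nuclei, with a term of 2.54 ± 0.35 (SE, edgeR quasi-likelihood adjusted p 1.19e-09). It lost the call without the saline female library. Ell2 stood at 269 and 206 CPM in saline and 719 and 537 CPM in cocaine activated nuclei, against 82.6 to 105 CPM in zero-sum nuclei, with a term of 1.32 (edgeR quasi-likelihood adjusted p 2.68e-08). It did not pass among nuclei of 8000 to 16000 UMIs, where the term was 0.80. Homer1 (0.80), Ntrk2 (0.70), Rheb (0.83), Pde7b (0.76), Rcan2 (0.83), Arhgef3 (1.02) and Reln (2.09) were the list genes that passed this term. None of the 16 immediate-early transcription factors tested passed, with a list median of 0.40 beside 0.02 over all genes.

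The term was negative for the other 3 of the 93 genes (0.0260% of those tested). Pip4p2, a phosphoinositide phosphatase, stood at 59.2 and 55.9 CPM in saline and 18.3 and 14.3 CPM in cocaine activated nuclei, with 53.7 to 58.7 CPM in zero-sum nuclei (term -1.63, edgeR quasi-likelihood adjusted p 0.0215). Bmpr2, a BMP receptor, stood at 216 and 189 CPM in saline and 118 and 114 CPM in cocaine activated nuclei (term -0.81, edgeR quasi-likelihood adjusted p 0.0472). Cdh20, a cadherin, had 13 UMIs in the saline and 0 in the cocaine activated nuclei, at least 5.25-fold lower when 3 UMIs are taken as the limit over the cocaine group. Cdh20 stood at 700.3 CPM in oligodendrocyte-gated nuclei, and the part of RNA from other cells in its counts was not tested. Pip4p2 lost its call when any 1 library was left out, and Bmpr2 and Cdh20 lost theirs without either cocaine library or the saline female library.

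**Figure D4:**
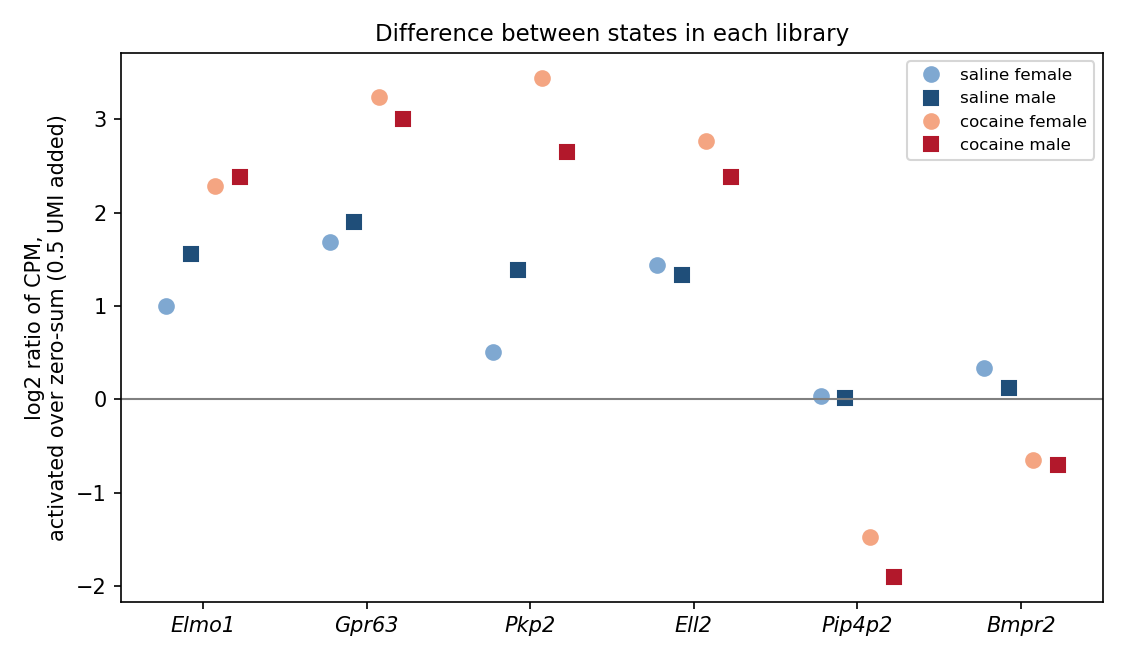
Log2 ratio of CPM, activated over zero-sum nuclei, with 0.5 UMI added, for 6 genes that passed the state by treatment term, 1 point per library. For Elmo1, Gpr63, Pkp2 and Ell2 both cocaine points lie above both saline points, and for Pip4p2 and Bmpr2 both lie below.

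Cocaine and saline were also compared within each state, with sex as the block. Within activated nuclei, 58 of 6573 genes passed (0.882%, edgeR quasi-likelihood), 51 higher with cocaine (0.776%) and 7 lower (0.106%). Without the sex block 17 passed and DESeq2 called 6. With 3 libraries the sex block could not be kept, so each fit within 1 state that leaves out a library also lacks that block, and the parts of the library and the block in a lost call cannot be told apart where the call was also lost when only the block was dropped. Such fits gave 18 genes (cocaine female left out), 35 (cocaine male), 42 (saline female) or 116 (saline male). The genes named as higher were those of the term above: Ell2 at a log2 fold change of 1.44, Pkp2 at 2.34, and Elmo1 and Gpr63 at 1.02 each, with edgeR quasi-likelihood adjusted p from 7.85e-07 to 7.04e-04. Without the cocaine female library and the block Pkp2 (1.42) and Gpr63 (0.93) lost the call, with edgeR quasi-likelihood adjusted p of 0.0532 and 0.0524, while both passed when only the block was dropped (0.0224 each). Of the effector list Homer1 (0.79), Rheb (0.83), Pcsk1 (1.06), Scg2 (0.86) and Ntrk2 (0.56) passed, 5 of 17 tested. None of the 9 immediate-early transcription factors tested passed, and their median was 0.52.

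Among the genes lower with cocaine within activated nuclei, Calcr stood at 214 and 94.3 CPM in the saline female and male and 58.9 and 61.2 CPM in the cocaine female and male libraries (log2 fold change -1.31, edgeR quasi-likelihood adjusted p 0.00635). The saline female value stood apart. The call was lost when only the sex block was dropped (-1.40), and the log2 fold change was -0.64 without both that block and the saline female library. Nr3c1, the glucocorticoid receptor, stood at 155 and 136 CPM in saline and 67.1 and 75.5 CPM in cocaine activated nuclei, a log2 fold change of -1.0 (edgeR quasi-likelihood adjusted p 0.0388), while zero-sum nuclei had 147 to 166 CPM. It passed in 2 of 8 alternatives and failed when only the sex block was dropped. Gng2, a G protein gamma subunit, had 19 and 11 UMIs in saline and 1 and 4 UMIs in cocaine activated nuclei (log2 fold change -2.83, edgeR quasi-likelihood adjusted p 0.0141), and it failed when only the sex block was dropped. Pip4p2 differed by -1.76 and failed when only the sex block was dropped. Calcr (-0.51) and Gng2 (-1.01) were lower with cocaine in zero-sum nuclei too, without passing (edgeR quasi-likelihood adjusted p 0.143 and 0.172). Their direction was therefore not particular to activated nuclei.

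Zero-sum nuclei summed to 4534751 to 4854334 UMIs per library, against 286303 to 523510 for activated nuclei. Of 12162 genes, 7 passed (0.0576%, edgeR quasi-likelihood), 5 higher (0.0411%) and 2 lower (0.0164%), with 1022 genes at an unadjusted p under 0.05. DESeq2 called 0 with 60 at an unadjusted p under 0.05, and the fit without the sex block called 0. Of the fits that left out a library along with the block, those without either saline library called 0, that without the cocaine female 21 and that without the cocaine male 16. Sox6, a transcription factor, had the smallest adjusted p, with 24.7 and 28.6 CPM in saline and 8.09 and 9.33 CPM in cocaine zero-sum nuclei (log2 fold change -1.65, edgeR quasi-likelihood adjusted p 4.25e-04). Spag6l differed by -1.80, and Mfsd10 (1.14), the interferon-induced Oasl2 (1.42), the class I histocompatibility gene RT1-T24-1 (0.67) and Sap18 (0.62) were higher, with edgeR quasi-likelihood adjusted p from 0.0201 to 0.0360. Each of these 6 genes lost its call when only the sex block was dropped. Elmo1, Gpr63, Ell2 and Pkp2 were not among the 7.

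Activated D1-gated nuclei were compared with the zero-sum nuclei of their own gate in the same way, and 915 of 8849 genes passed (10.3%), 747 higher (8.44%) and 168 lower (1.90%). The D2 and D1 sums come from the same 4 libraries and share their free RNA and depth. The lists had 601 genes in common, 51.2% of the D2 and 65.7% of the D1 list. Of the 1107 D2 genes that were also tested in D1-gated nuclei, 1055 had the same sign (Pearson r = 0.89 across genes, which are not independent replicates). The sign count and r cover only genes called in D2-gated nuclei, with no rate over all genes tested in both classes beside them. Both classes were also split by the same 6-gene sum. Npas4 differed by a log2 fold change of 6.58 in D2-gated and 7.07 in D1-gated nuclei, Arc by 6.14 and 6.19, Pcsk1 by 5.25 and 5.29, Homer1 by 2.09 and 2.59, and Tac1 by 3.33 and 2.97. When the 2 differences were set against each other in 1 fit, 0 of 9695 genes passed (0.00%, edgeR quasi-likelihood), with 531 (5.48%) at an unadjusted p under 0.05, and DESeq2 also called 0. A difference between the classes was therefore not detected for any gene at this depth, which does not show that the responses are equal. Without the saline female library 2 genes passed, and without the saline male library 5.

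**Figure D5:**
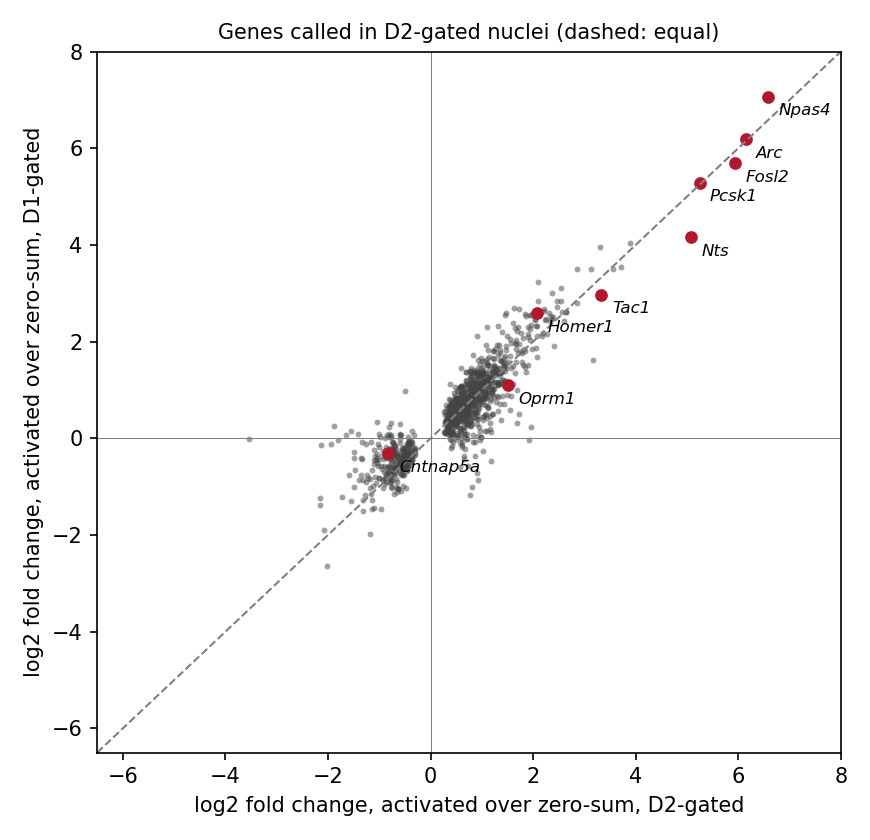
Log2 fold change of activated over zero-sum nuclei in D1-gated (vertical) against D2-gated nuclei (horizontal), for genes called in D2-gated nuclei and tested in both, with the dashed line at equality. Most points lie near the line, with Npas4, Arc, Fosl2 and Pcsk1 at the upper end and Cntnap5a below 0 on both axes.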

How the data were processed

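Single-nucleus RNA was measured in 4 libraries of nucleus accumbens, 2 per treatment, made with 10x 3′ v3 chemistry from sorted nuclei of 4 pooled rats each, about 12500 loaded per library. The authors deposited whole-number UMI counts per gene and nucleus, not normalized, with barcode lists. They were made with Cell Ranger 6.1.2 against build rn7, per the submitters' processing notes. Counts over whole genes can split transcripts between near-identical copies and overlapping genes. The deposited lists hold 30560 genes, 7162 by identifier only, and 83 of the 1174 genes called had no symbol and were counted but not named.

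Nuclei were gated on raw counts, with no clustering. For D1-gated nuclei Drd1, Ebf1 and Pdyn summed to 5 or more with Drd1 at 1 or more and Drd2 plus Adora2a at 1 or less. Oligodendrocyte-gated nuclei had 10 or more UMIs summed over a marker set that includes Mbp, Mog and Mobp, with Pde10a at 1 or less. They also had no UMI of Drd2 or Drd1. Counts were summed per library and state, since nuclei are not replicates, and tested in edgeR 4.0.16 (R 4.3.3; TMM scaling, filterByExpr, quasi-likelihood), with the library as a block between states and sex as a covariate between treatments, at a Benjamini-Hochberg adjusted p of 0.05. Fits used all genes, and rule and gate genes were then left out of counts. Residual degrees of freedom were 3 between states, 2 for state by treatment, 1 within each state and 6 for state by class. Prior degrees of freedom, the weight of a spread shared across genes, were 26.8 between states and infinite for state by treatment. They were 35.1 within activated nuclei, 16.8 within zero-sum nuclei and 20.5 for state by class. List members with low counts entered only if they passed filterByExpr. Alternatives were DESeq2 1.42.0, RLE scaling, no filter on low counts, no block, thresholds of 3 and 8, a window of 8000 to 16000 UMIs, removal of the highest Scrublet scores (scanpy 1.11.5, 0.8% per 1000 nuclei) and leaving out each library (within 1 state together with the sex covariate). Scripts were tested on simulated counts.

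Named genes were up to 14 higher and 10 lower by adjusted p with one sign in 4 libraries, up to 6 passing and 3 not passing per list, and up to 4 per direction in the other comparisons. Further passing list members were named after their values were seen. The nuclei, gates, lists and tests were chosen with earlier results of these data known. Some genes that met these rules are not reported here, though the counts include them. Cldn5, Dusp1, Flt1, Hspa1a, Hspa1b and Prkg1 were not matched by symbol and not used here.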

Additional observations from a re-analysis of the deposited data

Results flagged for a closer look

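The difference between activated and zero-sum nuclei differed between cocaine and saline for 93 genes in the test of that difference itself (edgeR quasi-likelihood). Among them Elmo1 had a log2 term of 1.18, Gpr63 of 1.46, Pkp2 of 2.54 and Ell2 of 1.32. Pip4p2 had -1.63 and Bmpr2 -0.805. Cdh20 had 13 UMIs in saline activated nuclei and 0 in cocaine activated nuclei. Elmo1 and Gpr63 passed in every alternative run for them, and the others did not.

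The share of activated nuclei was lower with cocaine than with saline in females, by -0.404 percentage points, and higher in males, by 2.07 points. The female difference was positive at a threshold of 8 UMIs (1.30 points), without Nr4a3 (0.90), with doublets removed (0.14) and after thinning (2.40), so the opposite signs depend on these settings. With 1 library per treatment and sex the difference between the sexes was not tested. The intervals of both female libraries overlapped, as did those of both male libraries.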

How the results depend on the processing

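The difference in share between cocaine and saline (0.83 percentage points) ranged from -0.68 without the saline male library to 2.35 points on leaving out 1 library, and was 0.42 at a threshold of 3, 1.25 at a threshold of 8 and 2.09 after thinning. The 1174 genes that differed between states became 717 with DESeq2 (66 lower, against 302), 641 in the UMI window and 804 to 1187 on leaving out 1 library. Without a filter on low counts 62.8% of 1265 called genes were higher, against 74.3% with it. The 93 genes of the state by treatment term became 13 with DESeq2 and 24 to 135 on leaving out 1 library. The 58 genes within activated nuclei became 6 with DESeq2, 17 without the replicate block and 18 to 116 on leaving out 1 library and, as 3 libraries allow no sex term, the block with it. The 7 genes within zero-sum nuclei became 0 with DESeq2, 4 with RLE scaling, 69 without a filter, 0 without the replicate block and 0 to 21 on leaving out 1 library with the block. The 0 genes that differed between D2-gated and D1-gated nuclei became 22 without a filter and 0 to 5 on leaving out 1 library. The cause of these moves was not tested. Without the library block between states 1148 genes were called.

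Of 987 log2 values of the 83 genes covered by the naming rule between states, 909 kept their direction and side of the threshold, 56 fell short of it, 5 crossed it and 17 changed sign, all in genes that did not pass. With a threshold of 3, Npy was 0.14 and Hsp90aa1 -0.0074, and with a threshold of 8 Baz1a was -0.030. In the UMI window Gnal was -0.032, Hspa5 -0.25 and Kcnip2 0.11. Kcnip2 was 0.0065 with DESeq2, 0.0065 with RLE scaling and 0.015 with doublets removed. On leaving out 1 library, Npy ranged from -1.17 to 0.55, Spred3 from -0.097 to 0.42, Ppp3ca from -0.092 to 0.030, Sfxn1 from -1.10 to 0.30, Hsp90aa1 from -0.031 to 0.28 and Kcnip2 from -0.039 to 0.018.

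With 35 to 57 activated nuclei per library, 286303 to 523510 UMIs limited genes of low counts, and 2 libraries per treatment cannot reach an exact p under 0.3333.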
